A study of Mus musculus with 56 samples.

Results

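Glucocorticoid-responsive genes were followed through the gastrocnemius muscle of 56 mice. They are 10 genes chosen by name, Nr3c1, which encodes the glucocorticoid receptor, and 9 genes known to respond to it (Fkbp5, Tsc22d3, Mt1, Mt2, Klf15, Ddit4, Cdkn1a, Zbtb16 and Sgk1). All 10 were among the 15539 genes in the count table and among the 14321 that passed the filter on low counts. No threshold on a measured value was used to choose them, but they were chosen with earlier results of these data known. The mice were C57Bl/6 animals on a standard chow and formed 8 groups of 7 by sex, genotype and whether the wheel in the cage was locked or free to turn (running). The labels give an age of 5 months and 10 weeks of wheel exposure, and elsewhere place the running at 10 to 20 weeks of age. The 2 statements were not reconciled. Controls carried floxed Elavl1 alleles (HuR fl/fl) without Cre, and their littermates carried in addition a Cre driven by the Mlc1f (Myl1) promoter of skeletal muscle, so other cells of the muscle keep HuR. HuR is the RNA-binding protein encoded by Elavl1.

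Glucocorticoids cross the cell membrane and bind a cytoplasmic receptor held by heat shock proteins, and the receptor then enters the nucleus and binds DNA as a dimer. In skeletal muscle this pathway is known for raising protein and amino acid breakdown, restraining growth signalling and shifting fuel use, and it follows the daily rhythm of corticosterone. Several of its targets act back on it: Fkbp5 lowers the affinity of the receptor for hormone, and Tsc22d3 encodes the anti-inflammatory protein GILZ.

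Each library held between 6639782 and 21633091 counts. Levels are given as CPM, counts scaled to the size of the library after TMM normalization, and a gene is written as called where its limma adjusted p over the 14321 genes was 0.05 or less. The 15 skeletal muscle markers summed to at least 127944 CPM in every mouse. Elavl1 itself ran from 27.8 to 61.9 CPM (median 49.4) in the 28 controls and from 37.9 to 69.8 CPM (median 52.5) in the 28 mice labelled HuR knockout, a log2 difference of 0.13 ± 0.06 (SE) with a limma adjusted p of 0.150. In running males it was higher in the labelled mice, by 0.44 on the log2 scale (limma adjusted p = 0.0242, exact permutation p = 0.0338). There the controls ran from 27.8 to 60.9 CPM (median 54.4) and the labelled mice from 53.2 to 69.8 CPM (median 61.3), so the groups overlapped. The log2 difference was -0.05 in locked males, 0.11 in locked females and 0.01 in running females, none of them called. The study itself reports, from qPCR, lower Elavl1 mRNA in the gastrocnemius of its knockout mice than in controls. Whether those were the sequenced mice is not stated. The counts are per gene and do not separate the floxed part of Elavl1 from the rest, so the animals are called mice labelled HuR knockout below, and any direction by genotype is a direction between labels. The sources name 2 library kits, a 3' mRNA kit in the labels and a stranded total RNA kit in the study's methods, so levels were compared between mice and not between genes. Only the description of the spread inside groups, further on, matches genes by their level.

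Sex separated the 10 genes more than the wheel or the label did. Averaged over the 4 comparisons of females with males, 7 of the 10 were called, against 33% of all genes tested: Nr3c1, Klf15 and Cdkn1a were higher in females and Sgk1, Fkbp5, Tsc22d3 and Zbtb16 lower. Over all genes 15.8% were called higher and 17.1% lower in females. Averaged over the 4 comparisons by label, 3 of the 10 were called against 11.8% of all genes: Cdkn1a was higher, where 4.43% of all genes were, and Tsc22d3 and Klf15 lower, where 7.41% were. Averaged over the 4 comparisons of running with locked wheels, Zbtb16 alone was called and rose, against 5.96% of all genes called, 3.42% up and 2.54% down. The median log2 difference of the 10 genes was -0.11 for sex, 0.03 for the label and -0.03 for the wheel, beside 0.00, 0.01 and 0.01 over all genes. The plot of the mean effects shows these 30 estimates with their intervals.

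**Figure D1:**
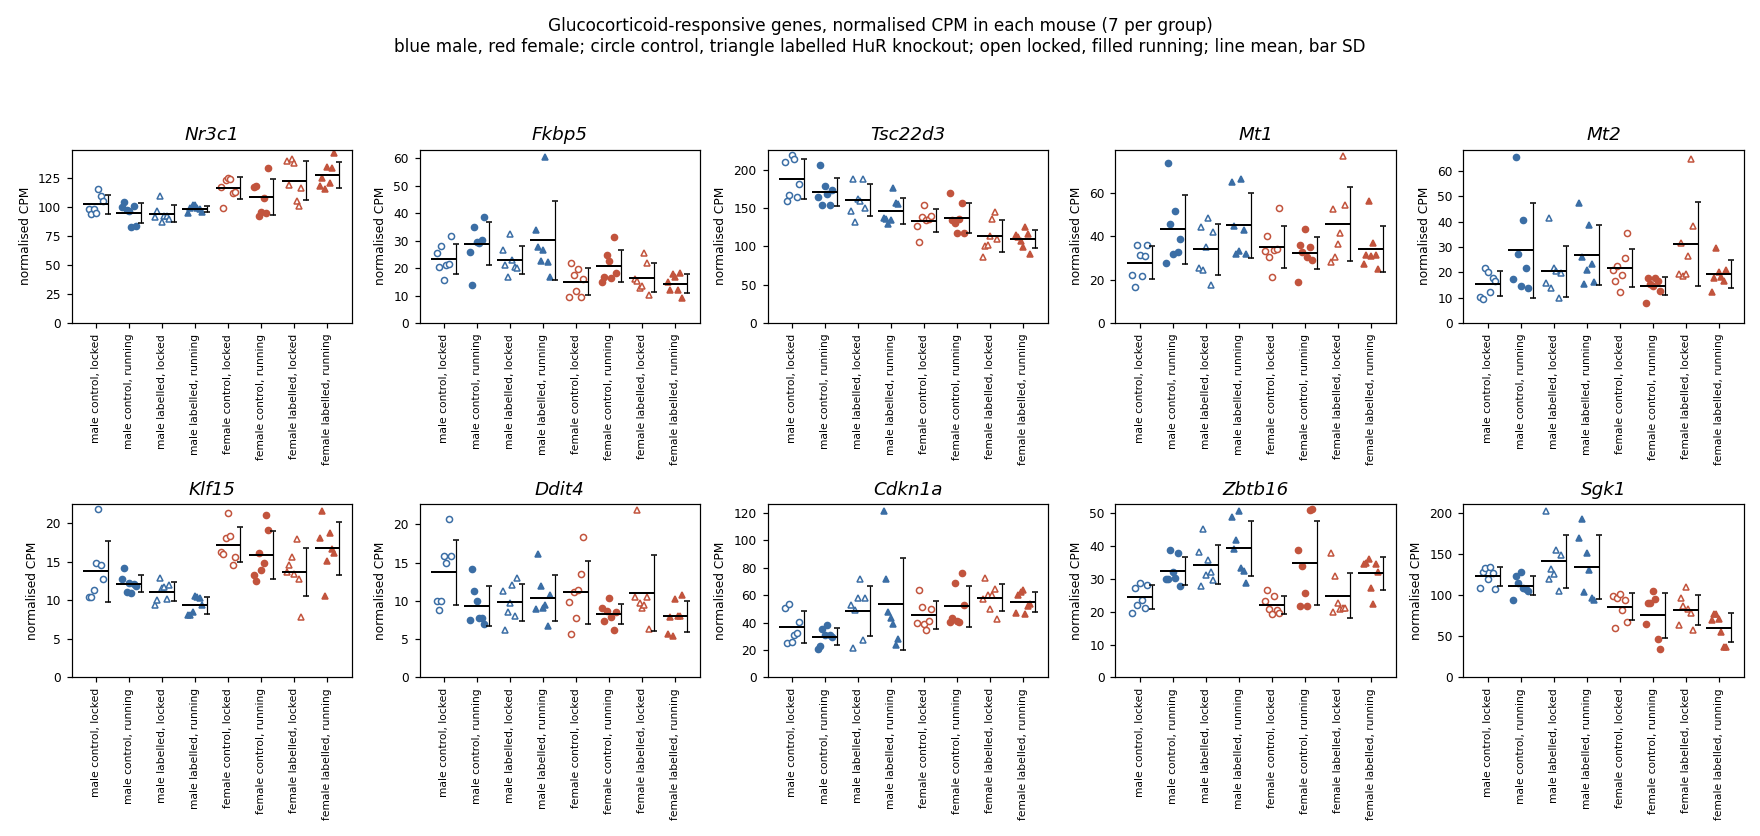
Normalised CPM of the 10 genes (vertical axes, from 0) in each of the 56 mice, by group (horizontal axes); points are mice, lines the means of 7 and bars the SD. Tsc22d3 and Sgk1 sit lower in the 4 female groups, while Mt1, Mt2 and Cdkn1a scatter widely inside most groups.

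**Figure D2:**
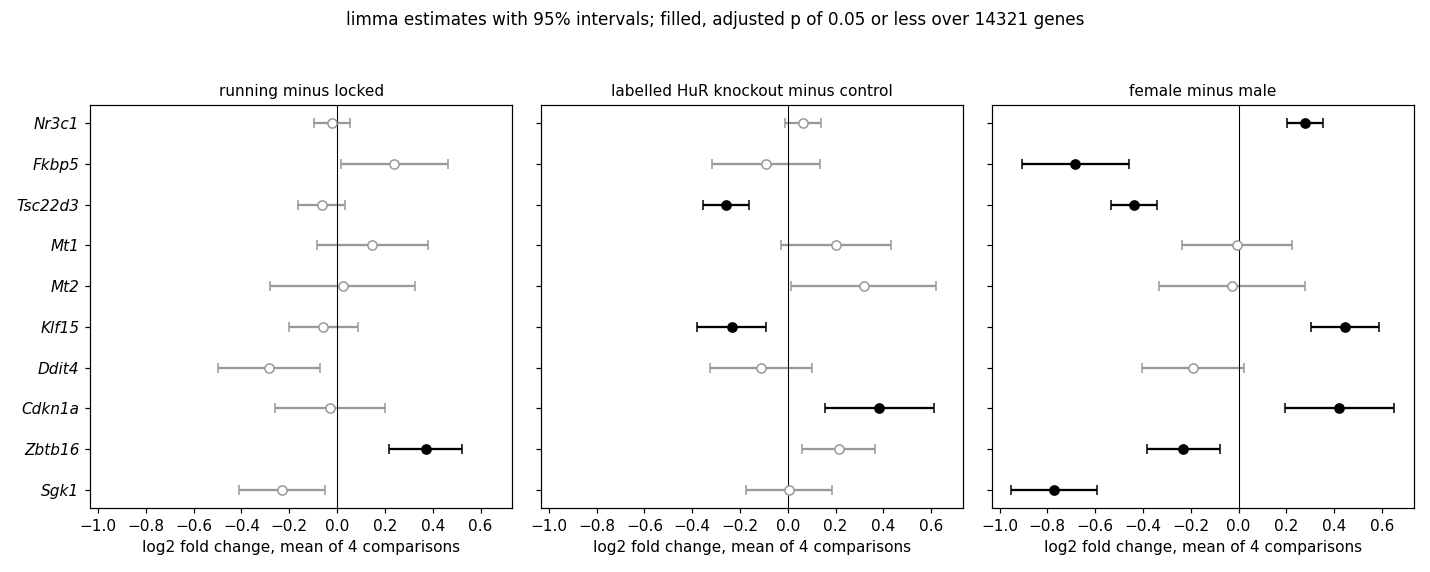
log2 fold changes of the 10 genes with 95% intervals (limma, mean of 4 comparisons of 7 against 7 mice) for running minus locked, labelled HuR knockout minus control, and female minus male; filled points were called over 14321 genes. The sex panel holds 7 filled points, the label panel 3 and the wheel panel 1.

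Nr3c1, the receptor gene, was the most even of the 10. It ran from 82.4 to 115 CPM (median 97.6) in the 28 males and from 92.4 to 146 CPM (median 118) in the 28 females. The ranges overlapped, yet the middle female lay above the highest male. The female level was 1.21-fold higher (log2 difference 0.28 ± 0.04, limma adjusted p = 2.1e-08). The difference was called in labelled mice on locked wheels (0.38 ± 0.07, limma adjusted p = 0.00017) and on running wheels (0.37 ± 0.07, limma adjusted p = 0.000704). On running wheels the 7 labelled females and 7 labelled males did not overlap. For these and all groups below that did not overlap, the share of all genes separated in that way was not computed. In controls it was 0.19 ± 0.08 on locked and 0.18 ± 0.08 on running wheels, with limma adjusted p of 0.0694 and 0.129. The locked control difference was called without female 15, running female 9, male 20 or male 29 (0.19 to 0.22, limma adjusted p 0.0278 to 0.0468). The wheel gave -0.02 ± 0.04 and the label 0.06 ± 0.04, neither of them called.

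Fkbp5, which encodes the FKBP51 co-chaperone and is among the most widely used readouts of receptor activity, ran the other way from its receptor by sex. It stood at 14.0 to 60.7 CPM (median 25.7) in males and 8.97 to 31.3 CPM (median 16.4) in females. The sexes overlapped, with the highest female above the male median. The female level was 0.62-fold the male one (log2 difference -0.68 ± 0.11, limma adjusted p = 1.7e-06). It was called lower in females among locked controls (-0.72 ± 0.24, limma adjusted p = 0.022) and running labelled mice (-1.02 ± 0.22, limma adjusted p = 0.0015). In running controls and locked labelled mice it was -0.48 ± 0.22 and -0.51 ± 0.23, with limma adjusted p of 0.179 and 0.103. The call in locked controls was lost without female 12, female 32 or male 31 (log2 differences -0.60 to -0.62, limma adjusted p 0.0609 to 0.0781). Running gave 0.24 ± 0.11 (limma adjusted p = 0.214) and the label -0.09 ± 0.11 (limma adjusted p = 0.682). One running labelled male, mouse 4, had 60.7 CPM, the highest value of the 56.

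Tsc22d3, the GILZ gene, was lower both in females and in labelled mice. Males ran from 130 to 219.5 CPM (median 163) and females from 85.8 to 170.2 CPM (median 121). The ranges overlapped, with the highest female above the male median and the female median below the lowest male. The female level was 0.74-fold the male one (log2 difference -0.44 ± 0.05, limma adjusted p = 1.0e-10), and the difference was called in all 4 states, from -0.32 ± 0.10 in running controls to -0.52 ± 0.10 in locked labelled mice. Among locked controls and among running labelled mice no female reached the lowest male. The call in running controls was lost without female 9, 25, 26 or 27 or male 13 (-0.27 to -0.31, limma adjusted p 0.0501 to 0.101). By label, controls ran from 106 to 219.5 CPM (median 156) and labelled mice from 85.8 to 188 CPM (median 133), which is a wide overlap. The labelled mice had 0.84-fold the control level (log2 difference -0.26 ± 0.05, limma adjusted p = 0.00017). The 4 single comparisons by label ran from -0.22 ± 0.10 to -0.33 ± 0.10 and all pointed down, with limma adjusted p from 0.164 to 0.223. Tsc22d3 lies on the X chromosome (chrX:140539528-140600659 on the minus strand, GRCm38).

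Mt1 and Mt2 encode metallothioneins, small cysteine-rich proteins that bind zinc and other metals, and both are known to respond to metals and to glucocorticoids. They are neighbours on chromosome 8, Mt2 at chr8:94172664-94173568 and Mt1 at chr8:94179082-94180327, both on the plus strand of GRCm38. Because their levels moved together from mouse to mouse, the 250 bases before their RefSeq starts are shown, chr8:94178839-94179088 for Mt1 and chr8:94172368-94172617 for Mt2 on the plus strand of GRCm38.p6. Capitals mark TGCACNC or TGCGCNC on either strand, 2 forms of the core of the metal response element.
Mt1: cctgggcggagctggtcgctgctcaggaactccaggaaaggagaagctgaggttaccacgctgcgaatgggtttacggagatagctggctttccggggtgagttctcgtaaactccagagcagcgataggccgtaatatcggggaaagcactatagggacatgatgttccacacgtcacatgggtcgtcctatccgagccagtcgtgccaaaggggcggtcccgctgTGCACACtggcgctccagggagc
Mt2: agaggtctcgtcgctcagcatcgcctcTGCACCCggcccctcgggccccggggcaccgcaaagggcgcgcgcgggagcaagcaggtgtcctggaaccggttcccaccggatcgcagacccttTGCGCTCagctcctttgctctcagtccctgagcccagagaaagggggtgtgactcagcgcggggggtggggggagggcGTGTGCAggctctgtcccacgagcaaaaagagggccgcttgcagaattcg
The Mt1 window held 1 match, to TGCACNC, and the Mt2 window held 2 matches to TGCACNC and 1 to TGCGCNC. Sequence outside these windows was not searched, so these are not counts for the whole promoters. The position given above for Mt2 begins at 94172664, past the end of its window. Of 32851 RefSeq windows of the same length 10.4% held TGCACNC and 12.5% held TGCGCNC. Neither window held AGAACA, the hexamer that makes up each arm of the glucocorticoid response element and occurs in 16.1% of all windows.

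Neither metallothionein was called by limma by sex, label or wheel. Mt1 ran from 16.7 to 73.8 CPM (median 34.1) in males and 18.8 to 76.9 CPM (median 33.5) in females, which is nearly the same range. Mt2 ran from 9.62 to 65.6 CPM (median 19.9) in males and 7.93 to 64.8 CPM (median 18.8) in females. Their sex differences were -0.01 ± 0.12 and -0.03 ± 0.15 on the log2 scale (limma adjusted p 0.975 and 0.911). In running controls alone Mt2 was -0.78 ± 0.32 in females minus males (limma adjusted p = 0.125), and DESeq2 (-0.94, adjusted p = 0.0371) and edgeR (-0.96, adjusted p = 0.0375) called it lower in females. The wheel estimates had opposite signs in the sexes, and none was called. For Mt2, running minus locked was 0.74 ± 0.31 in male controls and 0.45 ± 0.29 in labelled males, and -0.52 ± 0.33 and -0.57 ± 0.28 in the corresponding females. In male controls Mt2 was 9.62 to 21.8 CPM (median 16.8) on locked and 13.9 to 65.6 CPM (median 21.6) on running wheels. In female controls it was 12.2 to 35.8 CPM (median 21.2) on locked and 7.93 to 17.9 CPM (median 15.5) on running wheels. Groups overlapped in each case. The wheel difference in females minus that in males was -1.26 ± 0.45 for Mt2 in controls (limma adjusted p = 0.067) and -1.03 ± 0.41 in labelled mice (limma adjusted p = 0.199), with -0.72 ± 0.33 and -0.82 ± 0.32 for Mt1. The first was called by DESeq2 (-1.44), by edgeR (-1.46), with sample quality weights (-1.23) and with only the 4 control groups fitted (-1.25), at adjusted p from 0.0176 to 0.0433. It was also called by limma without locked female 18, running male 5 or running male 26 (-1.42 to -1.38, adjusted p 0.0323 to 0.0443). Whether reads that fit both paralogues were counted is not given in the sources used here.

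Klf15 encodes a transcription factor that promotes amino acid breakdown in muscle. It ran from 8.04 to 21.8 CPM (median 11.2) in males and 7.85 to 21.6 CPM (median 15.8) in females. The ranges were alike while the medians were not, and the female level was 1.36-fold higher (log2 difference 0.45 ± 0.07, limma adjusted p = 1.3e-06). In running labelled mice the 7 females (10.6 to 21.6 CPM) lay above the 7 males (8.04 to 10.5 CPM), a log2 difference of 0.81 ± 0.15 (limma adjusted p = 0.00012). The other 3 states gave 0.26 to 0.37 and were not called. That of locked controls was called without any 1 of 19 of the 56 mice (0.37 to 0.49, limma adjusted p 0.0106 to 0.0498), and that of locked labelled mice without female 34 (0.41, limma adjusted p = 0.0264). Labelled mice had 0.85-fold the control level (median 11.8 against 14.4 CPM, log2 difference -0.23 ± 0.07, limma adjusted p = 0.0233). In running males the 7 labelled mice lay below the 7 controls (8.04 to 10.5 against 10.9 to 14.2 CPM), with a log2 difference of -0.39 ± 0.15 and a limma adjusted p of 0.166. In running females the difference was 0.09 ± 0.14. By wheel, labelled females gave 0.30 ± 0.14 (limma adjusted p = 0.223), which was called without running female 21 (0.42, limma adjusted p = 0.0499).

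Because clock genes and Klf15 are compared inside groups further on, the 250 bases before its RefSeq start (chr6:90462326-90462575, plus strand, GRCm38.p6) are shown here with CACGTG, the E-box bound by the CLOCK and BMAL1 pair, in capitals.
Klf15: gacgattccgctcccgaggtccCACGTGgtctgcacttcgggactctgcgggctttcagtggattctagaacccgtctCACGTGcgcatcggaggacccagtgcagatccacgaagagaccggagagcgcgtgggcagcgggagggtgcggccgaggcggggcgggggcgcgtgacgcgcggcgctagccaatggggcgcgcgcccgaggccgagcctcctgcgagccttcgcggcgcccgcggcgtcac
It held 2 matches, 228 and 172 bases before the start, and CACGTG occurs in 6.02% of the 32851 windows. Of the 10 genes, 8 had a window (16 starts in all), and CACGTG stood in 3 of these starts, those of Klf15 and Fkbp5 and 1 of Sgk1.

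Ddit4 (REDD1), an inhibitor of the mTORC1 growth pathway, ran from 5.47 to 21.9 CPM over the 56 mice and was not called in any of the 21 comparisons. Running mice had a median of 8.61 CPM against 10.2 CPM on locked wheels, a log2 difference of -0.29 ± 0.11 (limma adjusted p = 0.0962). DESeq2 (-0.34), edgeR (-0.33) and sample quality weights (-0.32) did call it, at adjusted p from 0.0250 to 0.0480, as did limma without locked labelled female 34 (-0.32, adjusted p = 0.0475). The difference was -0.54 ± 0.20 in male controls and 0.06 ± 0.21 in labelled males.

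Cdkn1a encodes the cell cycle inhibitor p21, and its mRNA is a known target of HuR. Labelled mice ran from 21.6 to 121.6 CPM (median 53) and controls from 21 to 76.3 CPM (median 39.9). The ranges overlapped, and the labelled mice had 1.3-fold the control level (log2 difference 0.38 ± 0.11, limma adjusted p = 0.0190). The 4 single comparisons ran from 0.14 ± 0.22 in running females to 0.69 ± 0.23 in running males (limma adjusted p = 0.0928), and none was called. The last was called by DESeq2 and edgeR (0.85 in each, adjusted p 0.0221 and 0.0376) and by limma without labelled male 6 (0.86, adjusted p = 0.0256). Females ran from 34.4 to 76.3 CPM (median 52.0) and males from 21 to 121.6 CPM (median 37.0), a log2 difference of 0.42 ± 0.11 (limma adjusted p = 0.00282). With slow fibre markers as a covariate neither call stood, at -0.056 by sex and 0.055 by label (limma adjusted p 0.830 and 0.912). In running controls the 7 females (40.3 to 76.3 CPM) lay above the 7 males (21 to 38.5 CPM), with 0.77 ± 0.23 and a limma adjusted p of 0.0268. That call was lost without female 5, female 26, male 10 or male 13 (0.69 to 0.73, limma adjusted p 0.0618 to 0.0869).

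Zbtb16 (PLZF), a zinc finger transcription factor that glucocorticoids raise in many tissues, was the gene of the 10 that changed with the wheel. Locked mice ran from 19.3 to 45.2 CPM (median 24.2) and running mice from 21.6 to 51.2 CPM (median 33.6). They overlapped, with the running mice 1.29-fold higher (log2 difference 0.37 ± 0.08, limma adjusted p = 0.0012). The difference was positive in all 4 groups, at 0.55 ± 0.16 in female controls (limma adjusted p = 0.0231), 0.38 ± 0.15 in male controls, 0.36 ± 0.15 in labelled females and 0.20 ± 0.14 in labelled males, and the last 3 were not called. The call in female controls was lost without running female 1, 5 or 9 (0.45 to 0.50, limma adjusted p 0.0633 to 0.0673). Females had 0.85-fold the male level (-0.23 ± 0.08, limma adjusted p = 0.0150), with the single call in locked labelled mice (-0.46 ± 0.15, limma adjusted p = 0.0247). This one was lost without female 14, 30, 31 or 34 or male 15 (-0.40 to -0.43, limma adjusted p 0.0514 to 0.0689). The label gave 0.21 ± 0.08 (limma adjusted p = 0.0563), and it was called without any 1 of 19 of the 56 mice (0.22 to 0.24, limma adjusted p 0.0247 to 0.0498).

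Sgk1, a kinase gene induced by glucocorticoids and by mineralocorticoids, had the largest sex difference of the 10. Males ran from 94.4 to 203.1 CPM (median 125) and females from 34.3 to 110.6 CPM (median 78.0). The overlap was the upper females with the lower males, and the female level was 0.59-fold the male one (log2 difference -0.77 ± 0.09, limma adjusted p = 4.4e-10). It was called in all 4 states: -0.52 ± 0.18 in locked controls, -0.62 ± 0.18 in running controls, -0.79 ± 0.18 in locked labelled mice and -1.16 ± 0.18 in running labelled mice. No female reached the lowest male in locked controls and in running labelled mice. The call in locked controls was lost without female 15 or 33 or male 17, 18 or 20 (-0.44 to -0.50, limma adjusted p 0.0527 to 0.0835), and that in running controls without female 1, 5 or 9 or male 13 (-0.46 to -0.59, limma adjusted p 0.0520 to 0.110). DESeq2 did not call the latter either (-0.55, adjusted p = 0.0529). The wheel gave -0.23 ± 0.09 (limma adjusted p = 0.119) and the label 0.01 ± 0.09.

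RefSeq lists 6 starts for Sgk1. The window before start 5 (chr10:21993640-21993889, plus strand, GRCm38.p6) is shown because it holds the full glucocorticoid response element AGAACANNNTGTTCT, in capitals.
Sgk1 start 5: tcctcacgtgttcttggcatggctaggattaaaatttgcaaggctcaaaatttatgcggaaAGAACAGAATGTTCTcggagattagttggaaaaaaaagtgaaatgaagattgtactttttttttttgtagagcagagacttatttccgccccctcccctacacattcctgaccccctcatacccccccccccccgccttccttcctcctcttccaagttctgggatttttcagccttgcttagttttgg
The match stood 189 bases before the start. Of the 32851 windows 3 held this motif (0.00913%), those of Acnat2, Gm35041 and Sgk1, and none of the other 15 windows of the 10 genes did. The counts are per gene and do not tell which start was used.

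**Figure D3:**
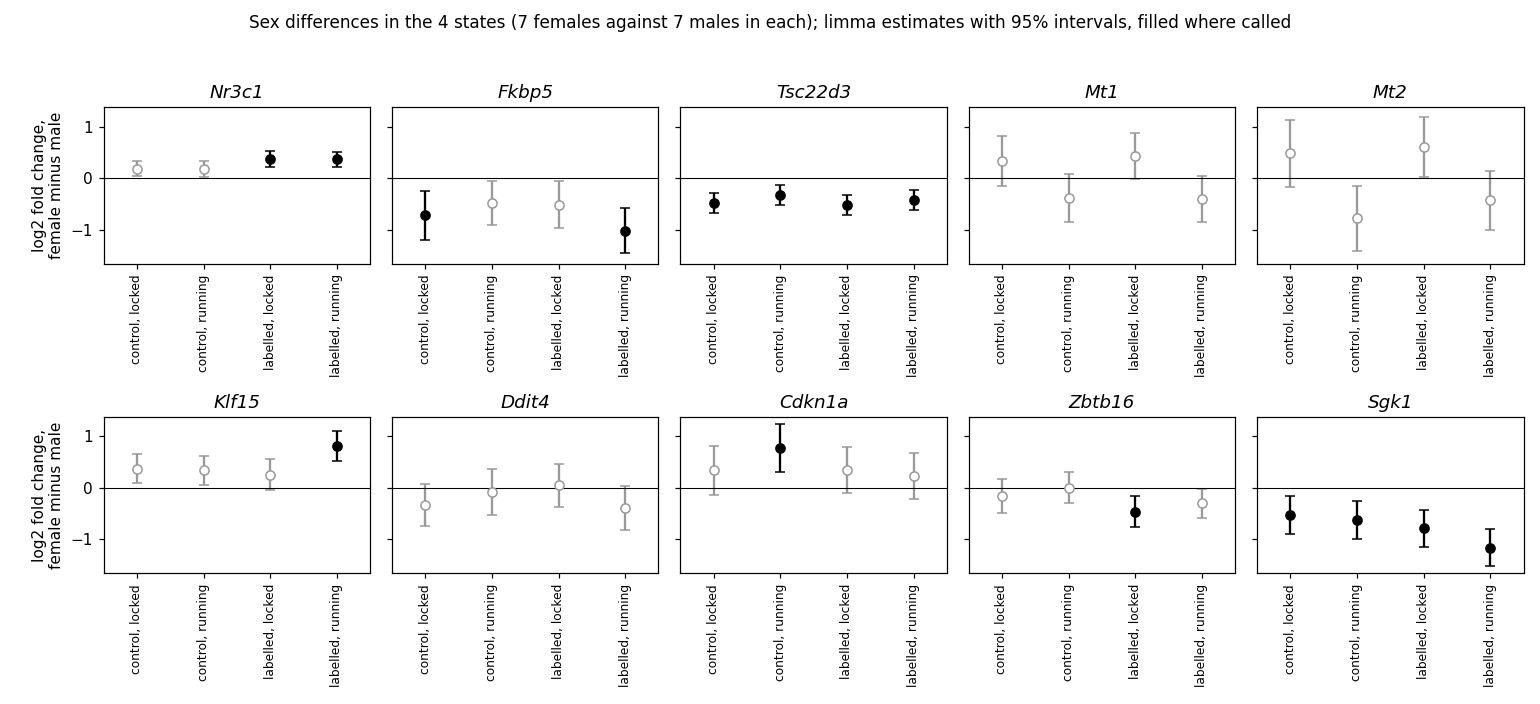
log2 fold change of females minus males (vertical axes, limma with 95% intervals) for the 10 genes in the 4 states, 7 females against 7 males in each; filled points were called. Tsc22d3 and Sgk1 are filled below 0 in all 4 states, and Mt1 and Mt2 lie above 0 on locked and below 0 on running wheels without a call.

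Taken state by state, 3 of the 10 genes were called by sex in locked controls (21.5% of all genes), 3 in running controls (7.65%), 4 in locked labelled mice (19.3%) and 5 in running labelled mice (5.57%). By wheel, the 1 call in female controls stood beside 8.74% of all genes, and there was none in male controls (3.24%), labelled males (0.0419%) or labelled females (3.85%). By label, none was called in locked males (1.15%), locked females (0.384%), running males (2.63%) or running females (0%). Without adjustment, 4 of the 10 genes had a limma p under 0.05 by wheel in male controls (2405 of all 14321), 2 in female controls (3342), 0 in labelled males (1821) and 4 in labelled females (2492). By label 3 did in locked males (2386 of all 14321), 2 in locked females (2043), 3 in running males (2223) and 3 in running females (1807). None of the 10 was called by limma in the 6 tests of a difference between effects, of which 5 had between 1 and 3 of the 10 at an unadjusted p under 0.05 and the label by sex on locked wheels 0, beside 1041 to 3245 of all 14321. All genes called there were 0.0349% for the wheel by label in males, 0% for the wheel by label in females, 8.74% for the wheel by sex in controls, 1.35% for the wheel by sex in labelled mice, 0% for the label by sex on locked wheels and 0.0140% for the label by sex on running wheels. A call in one state and not in another is therefore not shown to differ between them.

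Lists of related genes were counted in the same way, to be read against the 33% of all genes called by sex, 11.8% by label and 5.96% by wheel. Of 20 genes for chaperones and cofactors of the receptor, 2 were called higher in females and 8 lower, the lower ones including the coactivators Ncoa1 (-0.37) and Crebbp (-0.25), and the mineralocorticoid receptor gene Nr3c2 was higher (0.40). Running mice had 4 of these 20 called higher and 0 lower, against 3.42% and 2.54% of all genes. Labelled mice had 1 higher and 1 lower. Of the 5 genes of steroid metabolism that could be tested 2 were called, near the share of all genes, both lower in females: Hsd11b1, whose enzyme regenerates active glucocorticoid inside cells, by -0.56 (limma adjusted p = 3.6e-05), and H6pd, which supplies that enzyme with its cofactor, by -0.42 (limma adjusted p = 4.0e-11). Hsd11b1 was also lower in running mice (-0.38, limma adjusted p = 0.0234). Of 34 further glucocorticoid targets 8 were called higher and 8 lower in females, a split with Sesn1 (0.99), Pck1 (0.87) and Gadd45a (0.65) among the higher and Arrdc2 (-0.83) among the lower. By label, 6 of these 34 were called and all were lower, led by Gadd45a (-0.56, limma adjusted p = 5.8e-05), Eif4ebp1 (-0.26) and Slc7a2 (-0.23). By wheel, 1 rose (Lpin1, 0.29) and 1 fell (Per1, -0.67), a share near that of all genes.

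Genes of the circadian clock, which glucocorticoids entrain, were called by sex in 14 of 19 cases, 2 higher and 12 lower in females, with Per2 at -1.01 and Ciart at -0.99. By wheel 4 rose and 5 fell, with Npas2 at 0.66 and Ciart at -1.12, and by label 1 was higher and 2 were lower. Of 14 genes around Klf15 and amino acid breakdown 7 were higher and 2 lower in females, Prodh falling by 0.65 on the log2 scale, and 1 was higher and 6 lower in labelled mice. Running mice had 3 of the 14 called higher and 0 lower. Of 12 genes of metal handling, 1 was higher and 3 lower in females, a share near that of all genes, with the zinc transporter gene Slc30a2 at -4.34. Of 12 targets of p53, which also induces Cdkn1a, none was higher and 3 were lower in females (Phlda3, Eda2r and Mdm2), a share below that of all genes, while 1 was higher and 1 lower by label. Of 11 relatives of the 10 genes, 1 was higher and 4 lower in females, with Tsc22d1 at -0.51, and by label 2 were lower, Klf9 (-0.21) and Cdkn1c (-0.22). Of 18 immediate early genes 4 were called by label and all were higher, with Fos at 0.71, and by sex 3 were higher and 2 lower. The part of the clock in the sex differences of the 10 genes was not tested.

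Markers of other fibres and cells moved with the same comparisons. In bulk muscle, fewer cells of a type and less RNA per cell cannot be told apart. All 10 slow fibre markers were called higher in females (median log2 difference 0.63) and 8 of 10 in labelled mice (median 0.44), and their summed level ran from 1051 to 1473 CPM in locked male controls and from 2062 to 2909 CPM in running labelled females. In females 8 of 10 adipocyte markers (median 1.11), 6 of 11 leukocyte markers (median 0.54) and 5 of 5 erythroid markers (median 0.75) were higher as well. Summed adipocyte markers were 283 to 469 CPM in locked male and 420 to 739 CPM in locked female controls. The skeletal muscle markers were lower in females for 10 of 15 genes and higher for 1 (median -0.18), with 10 of 15 lower in locked controls (median -0.34), 9 in locked labelled mice (-0.22), 4 in running labelled mice (-0.15) and 2 in running controls (-0.01). By wheel 3 of them rose and 6 fell (median -0.08). Of the 13 leukocyte markers listed, 11 were in the count table, where no gene had under 168 counts in total. None of the slow fibre, adipocyte, leukocyte and erythroid markers in that table was at 0 in all mice of a group. Liver markers were lower in running mice for 7 of 24 genes (median -1.84), with summed levels of 157 to 4492 CPM in locked and 44.9 to 251 CPM in running female controls, where 1 of the 24 was at 0 in every mouse.

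Within groups, Cdkn1a rose with the mean of the slow fibre markers (Pearson r = 0.56, permutation p = 0.00074, adjusted over 70 relations p = 0.0387, Spearman rho = 0.47, permutation p = 0.0016; r = 0.55 without the 2 farthest mice), and the third panel of the plot of deviations shows it. With these markers as a covariate, a fit chosen after seeing the data, none of the 3 genes stayed called by label. The log2 differences became 0.06 ± 0.12 for Cdkn1a, -0.15 ± 0.05 for Tsc22d3 and -0.27 ± 0.09 for Klf15 (limma adjusted p 0.912, 0.192 and 0.167), and the genes called by label among the 14321 fell from 1695 to 48. By sex, Cdkn1a turned from 0.42 to -0.056 ± 0.13 (limma adjusted p = 0.830), while the other 6 stayed called, Sgk1 at -0.91 ± 0.12 and Tsc22d3 at -0.29 ± 0.06. In running labelled mice the sex call of Tsc22d3 was lost in that fit (-0.30, limma adjusted p = 0.0687). With slow fibre, adipocyte, leukocyte and erythroid markers together, Sgk1, Tsc22d3 and Zbtb16 stayed called by sex and Nr3c1 (0.18, limma adjusted p = 0.0824), Fkbp5 (-0.57, limma adjusted p = 0.0590), Klf15 (0.25, limma adjusted p = 0.206) and Cdkn1a did not. Zbtb16 stayed called by wheel in both fits. With liver, adipocyte and leukocyte markers as covariates, Cdkn1a (0.28, limma adjusted p = 0.348) and Zbtb16 (-0.25, limma adjusted p = 0.196) were no longer called by sex, while the 3 calls by label and that of Zbtb16 by wheel stood. In single states there, none of the 10 stayed called by sex in locked and in running controls and 1 of 4 did in locked labelled mice. Several of the lost differences kept their size, with Sgk1 at -0.62 and Tsc22d3 at -0.31 in running controls and Zbtb16 at -0.45 in locked labelled mice, while others shrank, with Cdkn1a at 0.52 in running and Sgk1 at -0.37 in locked controls. The part that fibre or cell makeup has in these differences was not tested beyond these fits.

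Most of the 10 genes varied widely between mice of the same group. The SD inside groups on the log2 scale was 0.57 for Mt2, 0.45 for Mt1 and Cdkn1a, 0.43 for Fkbp5, 0.40 for Ddit4, 0.37 for Sgk1, 0.30 for Zbtb16, 0.26 for Klf15, 0.19 for Tsc22d3 and 0.14 for Nr3c1. Set beside genes within 0.5 of the same log2 level, the SD of Mt2 exceeded that of 99.3% of 2004 genes, Cdkn1a 98.5% of 1426, Mt1 98.4% of 1576, Fkbp5 97.9% of 2002 and Sgk1 97.3% of 678, while Nr3c1 exceeded 32.6% of 596. The highest mouse had 8.28 times the Mt2 level of the lowest, 6.77 times for Fkbp5 and 1.77 times for Nr3c1.

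Taken over all mice, that variation was shared by few pairs of the 10 genes. Of the 45 pairs, 26 had a positive Pearson r of the deviations from the group mean, the median r was 0.09, and 4 pairs passed an adjusted permutation p of 0.05 over the 45. The share of pairs of any genes that would pass was not computed. Mt1 and Mt2 were the tightest (r = 0.87, permutation p = 1e-05, which is the smallest that 100000 permutations give, adjusted p = 0.00045; rho = 0.85, permutation p = 1e-05; r = 0.84 without the 2 farthest mice). Their r was positive in 8 of 8 groups, from 0.70 in running labelled females to 0.97, and each was the other's closest gene among all 14321. It was 0.84 in females and 0.88 in males. Single mice were nonetheless the extreme of their group in several genes. Running male control 13 was highest for Nr3c1, Tsc22d3, Mt1, Mt2, Klf15 and Ddit4 and lowest for Fkbp5. Its Mt2 level was 65.6 CPM, with 40.8 CPM in the next mouse of that group. Locked female control 15 was highest for Fkbp5, Cdkn1a and Zbtb16 and lowest for Nr3c1, Tsc22d3, Ddit4 and Sgk1.

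**Figure D4:**
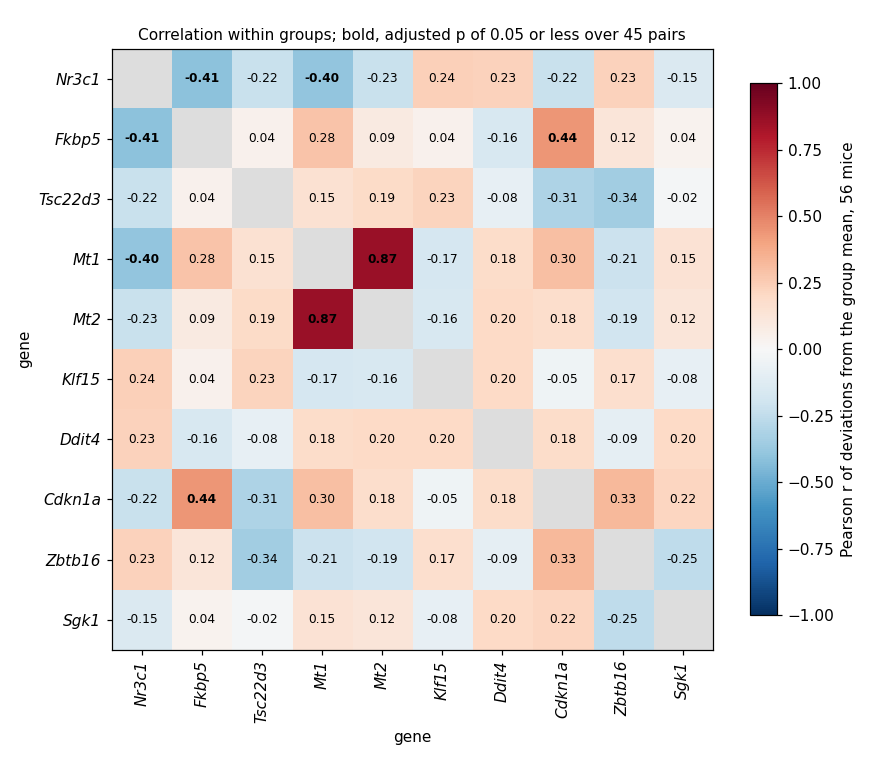
Pearson r between the 10 genes (both axes) over 56 mice after each group's mean was removed, printed in each cell and coloured from -1 to 1; bold cells passed an adjusted p of 0.05 over 45 pairs. The Mt1 and Mt2 cell at 0.87 stands apart from the other 44.

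The other 3 pairs were looser. Fkbp5 and Cdkn1a rose together (r = 0.44, permutation p = 0.0019, adjusted p = 0.0316; rho = 0.53, permutation p = 5.0e-05; r = 0.51 without the 2 farthest mice), with a positive r in 8 of 8 groups from 0.28 to 0.83. Among all genes tested Cdkn1a ranked 41 by r for Fkbp5, and Fkbp5 ranked 123 for Cdkn1a. Nr3c1 fell as Fkbp5 rose (r = -0.41, permutation p = 0.0021, adjusted p = 0.0316; rho = -0.40, permutation p = 0.0039; r = -0.39 without the 2 farthest mice), in 6 of 8 groups. Nr3c1 also fell as Mt1 rose (r = -0.40, permutation p = 0.0044, adjusted p = 0.0498; rho = -0.42, permutation p = 0.0023; r = -0.36 without the 2 farthest mice), with r = -0.66 in females and -0.08 in males, a difference that was not tested. Leaving out single mice ended the first and second of these calls for 25 of the 56 mice each and the last for 41, with r between 0.41 and 0.46, -0.43 and -0.37, and -0.41 and -0.34 in those fits, which drew 2000 permutations each. The relation of Nr3c1 and Mt1 was lost on library totals alone (r = -0.20, adjusted permutation p = 0.326), and with DESeq2 size factors or a pseudocount of 2 it was not called at an unmoved r (-0.40 in each, adjusted permutation p = 0.0529 and 0.0506). The other 2 were lost when the means of each mouse number were removed as a replicate block (r = -0.21 and 0.33, adjusted permutation p = 0.268 and 0.0849). Tsc22d3, Klf15, Ddit4, Zbtb16 and Sgk1 were in no called pair.

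**Figure D5:**
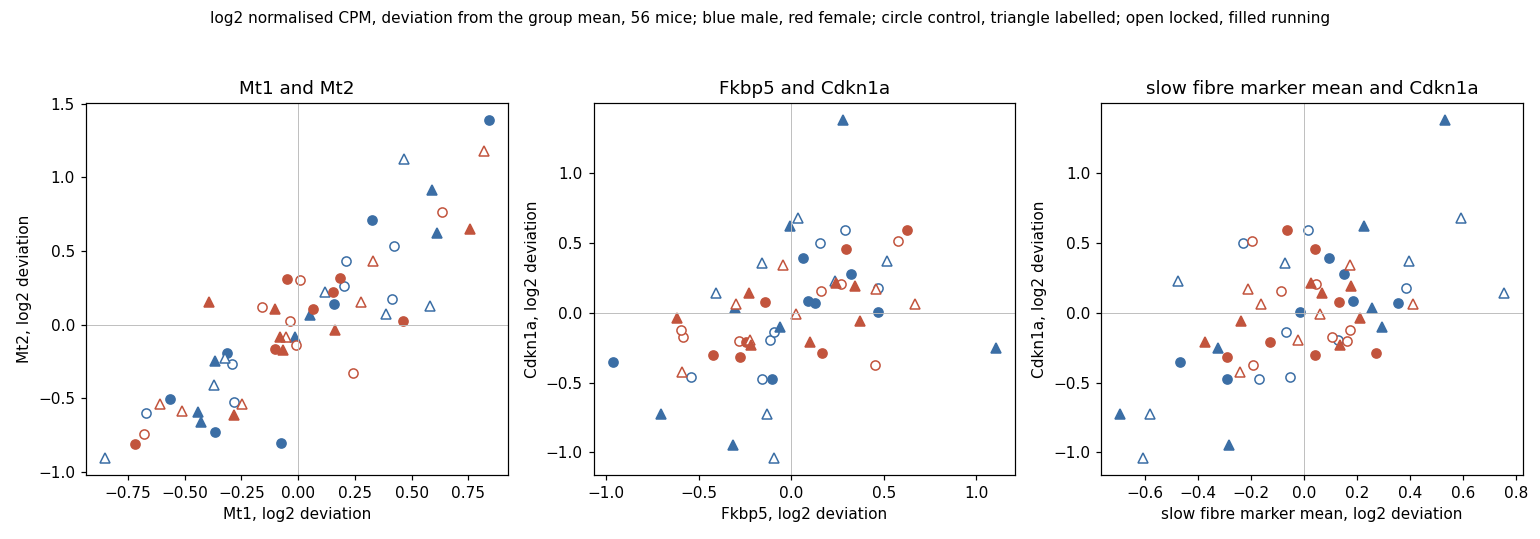
Deviations of log2 normalised CPM from the group mean in 56 mice for Mt2 against Mt1, Cdkn1a against Fkbp5, and Cdkn1a against the mean of 10 slow fibre markers; colours and symbols give sex, label and wheel. The points of the first panel lie along a line (r = 0.87), and those of the others form looser clouds (r = 0.44 and 0.56).

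The 10 genes were also set beside genes outside the list. Over 330 relations with the further glucocorticoid targets 15 were called, all positive, and 5 belonged to Klf15 and 4 to Ddit4, while Nr3c1, Mt1, Mt2 and Sgk1 had none. Over all 14320 other genes the 95th percentile of r was 0.34 for Klf15 and 0.35 for Ddit4. The share of all genes that would be called in this way was not computed. Klf15 rose with Fbxo32 (r = 0.68, permutation p = 1e-05, adjusted p = 0.00165, rho = 0.68, permutation p = 1e-05; r = 0.60 without the 2 farthest mice) and Trim63 (r = 0.67, permutation p = 1e-05, adjusted p = 0.00165, rho = 0.58, permutation p = 1e-05; r = 0.56 without the 2 farthest mice), the genes of the muscle ubiquitin ligases atrogin-1 and MuRF1. Both were among the 3 genes closest to Klf15 of all 14321, beside Pnrc1 (r = 0.75). Ddit4 rose with Arrdc2 (r = 0.56, permutation p = 4.0e-05, adjusted p = 0.0044, rho = 0.52; r = 0.47 without the 2 farthest mice) and with Cebpd, Nfkbia and Sesn1 (r from 0.45 to 0.53). Fkbp5 rose with Slc7a2, Glul and Lcn2 (r from 0.45 to 0.48), and its closest genes were Car14 (r = 0.74), Plin5 (0.64) and Slc27a1 (0.57). Of these relations of Ddit4 and Fkbp5, only that with Arrdc2 passed on rho as well.

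Over 190 relations with clock genes 24 were called, 12 of each sign, 8 of them for Zbtb16, 7 for Klf15 and 3 each for Sgk1 and Mt1. The 95th percentile of r over all 14320 other genes was 0.30 for Zbtb16, 0.34 for Klf15, 0.30 for Sgk1 and 0.26 for Mt1. Here too the share of all genes that would be called was not computed. For Klf15, only the relation with Hlf (r = -0.47, adjusted permutation p = 0.0112, rho = -0.47; r = -0.48 without the 2 farthest mice) passed on rho as well, and the other 6 had adjusted permutation p of 0.0796 to 0.124 on rho. Zbtb16 fell as Bhlhe41 rose (r = -0.65, permutation p = 2.0e-05, adjusted p = 0.0038, rho = -0.64, permutation p = 3.0e-05; r = -0.61 without the 2 farthest mice), in 8 of 8 groups. It also fell as Dbp rose (r = -0.58, adjusted permutation p = 0.0112, rho = -0.46; r = -0.46 without the 2 farthest mice) and rose with Clock (r = 0.51, adjusted permutation p = 0.0133, rho = 0.47; r = 0.45 without the 2 farthest mice). Sgk1 rose with Bhlhe40 (r = 0.58, rho = 0.54; r = 0.53 without the 2 farthest mice) and Per1 (r = 0.56, rho = 0.53; r = 0.56 without the 2 farthest mice), each with an adjusted permutation p of 0.00855 and a positive r in 5 of 8 groups. Mt2 and Mt1 rose with Per1, itself a glucocorticoid target, in 8 of 8 groups (r = 0.49 and 0.48, rho = 0.52 and 0.46, adjusted permutation p = 0.00855 and 0.0103; r = 0.52 for each without the 2 farthest mice). The metallothioneins were closest, apart from each other, to Csrp3, a muscle LIM protein gene (r = 0.64 for Mt1 and 0.74 for Mt2). Next came Ankrd2 (0.61) and Gdi2 (0.59) for Mt1, and the tubulin gene Tubb6 (0.73) and Ankrd1 (0.71) for Mt2. Fkbp5, Tsc22d3 and Ddit4 had no called relation with a clock gene. Other marker relations that passed over the 70 were Tsc22d3 and Zbtb16 with slow fibre markers (r = -0.42 and 0.39, rho = -0.44 and 0.40, adjusted permutation p = 0.0387 for each) and Klf15 with erythroid markers (r = 0.43, rho = 0.48, adjusted permutation p = 0.0387). On rho the relation of Zbtb16 did not pass (adjusted permutation p = 0.0766).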

How the data were processed

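Whole gastrocnemius muscle of 56 mice was sequenced, and a single table of unnormalised counts per gene and mouse was deposited by the authors, with 15539 genes. The submitters' processing notes name R 4.0.3 and edgeR 3.38.4. How strand and reads that fit several genes were handled is not given in the sources used here. Totals ran from 6639782 to 21633091 counts.

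Counts were filtered with filterByExpr (14321 genes kept), scaled by TMM and fitted over all 8 groups with voom and limma 3.58.1 (edgeR 4.0.16, R 4.3.3), with 21 contrasts and Benjamini-Hochberg adjustment over all genes in each. Mean contrasts average 4 single comparisons. Levels are TMM-normalised CPM. Errors after ± are standard errors of log2 differences. Relations within groups used log2(CPM + 0.5) minus the group mean, with 100000 two-sided permutations of mice within groups, adjusted over each family of relations. Each library was 1 mouse, so p-values measure the spread between mice.

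The 10 genes and all lists were chosen with earlier results of these data known. From each list up to 4 called genes with the largest differences per mean contrast were named, with the 3 genes closest to each of the 10. Genes named for a relation with the clock or target lists were chosen after their values were seen.

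Alternatives were DESeq2 1.42.0, the edgeR quasi-likelihood test, 2 other scalings, other filters, only the groups compared, sample quality weights, a replicate block, marker covariates and leaving out each mouse. The fits with slow fibre markers were added after seeing the data. The code was tested on simulated data. Promoter windows of 250 bases came from RefSeq (GRCm38.p6), with motifs searched on both strands and spelled out beside each sequence. The hexamer AGAACA lies within the full glucocorticoid response element.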

Additional observations from a re-analysis of the deposited data

Results flagged for a closer look

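In 7 of 80 combinations of gene and group the highest mouse stood apart from the other 6 by Dixon's test at its 95% level. For independent values of a normal distribution chance gives this in about 1 in 20. The test used CPM without a log scale, and Mt1 and Mt2 moved together, so that rate may not hold here. The locked labelled males held 2, Nr3c1 in mouse 15 (109.2 CPM, next highest 96.4) and Mt2 in mouse 12 (41.4 CPM, next 21.9). The locked labelled females held 2 as well, Mt2 in mouse 31 (64.8 CPM, next 38.3) and Ddit4 in mouse 14 (21.9 CPM, next 10.6). Fkbp5 reached 60.7 CPM in running labelled male 4 (next 34), and Mt1 reached 56.2 CPM in running labelled female 21 (next 37.0). Klf15 reached 21.8 CPM in locked male control 20 (next 14.9). The cause of these values was not tested. Running male control 13 and locked female control 15, each the extreme of its group in several genes, had no value flagged by this test.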

How the results depend on the processing

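The 31 called values of the 10 genes and their pairs kept their direction in 340 of 341 alternative values and in all 1736 values with 1 mouse left out, while 41 and 120 of them were no longer called. The exception was Cdkn1a by sex, -0.056 with slow fibre markers as covariate. The number of the 10 genes called moved by over 1.5 times as follows. By wheel on average it went from 1 to 2 with DESeq2 and edgeR (Ddit4 added) and with the 4 marker lists (Sgk1 added), and to 3 with sample quality weights. By label it went from 3 to 0 with slow fibre markers and with the 4 lists, and by sex from 7 to 3 with the 4 lists. In single comparisons by label it went from 0 to 1 with DESeq2 in locked males (Zbtb16), running males (Cdkn1a, also by edgeR) and running females (Tsc22d3). The wheel by sex difference in controls went from 0 to 1 (Mt2) with DESeq2, edgeR, only the groups compared and sample quality weights. By wheel it went from 0 to 1 in male controls with only the groups compared (Zbtb16) and from 1 to 0 in female controls with liver, adipocyte and leukocyte markers or the 4 lists, where the Zbtb16 difference was 0.60 and 0.61 against 0.55 before. By sex, locked controls went from 3 to 5 with upper-quartile scaling, at least 10 counts in every mouse or only the groups compared, and to 0 with either set of several markers. Running controls went from 3 to 0 with liver, adipocyte and leukocyte markers and to 1 with slow fibre markers or the 4 lists, and locked labelled mice from 4 to 1 with either set of several markers. Smaller moves were a gain by label from 3 to 4 (Zbtb16) with upper-quartile scaling or at least 10 counts in every mouse, and by sex a fall from 7 to 5 with liver, adipocyte and leukocyte markers and to 6 with slow fibre markers. Locked controls also went to 4 with DESeq2 (Nr3c1) and with its size factors or sample quality weights (Klf15). Running controls went to 4 with edgeR (Mt2) and with only the groups compared or sample quality weights (Klf15), stood at 3 with DESeq2 with Mt2 in place of Sgk1, and locked labelled mice went to 5 with sample quality weights (Klf15). Running labelled mice stayed at 5, with Zbtb16 in place of Tsc22d3 under slow fibre markers or the 4 lists. Apart from the covariates' own construction the cause was not tested.

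With 1 mouse left out, the counts ran from 1 to 2 by wheel, 3 to 4 by label and 7 to 7 by sex on average. They ran from 0 to 1 by wheel in female controls and labelled females, by label in running males and for the wheel by sex in controls, from 2 to 5 by sex in locked controls, 0 to 3 in running controls, 3 to 4 in locked and 5 to 5 in running labelled mice. The called pairs ran from 1 to 4. Replicate numbers shared by females and males of the same genotype and wheel state showed no clear pairing (r of deviations -0.18 to 0.19 over 12 shared numbers, 3 of them best matches). Numbers shared across genotype or wheel state were not compared. The replicate block, with a consensus correlation of 0.0222, changed no count of the 10 genes in any comparison. It ended the calls of the pairs Nr3c1 and Fkbp5 (r = -0.21, adjusted permutation p = 0.268) and Fkbp5 and Cdkn1a (r = 0.33, adjusted permutation p = 0.0849). The lowest count behind a value was 46, for Ddit4, and the precision of the low genes is limited by such counts.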
